A study of Mus musculus with 48 samples.

Results

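Genes of T cells and of cytotoxic lymphocytes were examined in the cortex of 5xFAD mice that carried 1 or 2 working copies of Plcg2. The set held 7 of the 757 genes of the nCounter Glial panel and was taken by name: Cd3d, Cd8a, Foxp3, Eomes, Prf1, Gzma and Nkg7. It was chosen with earlier results of these data known. Total RNA of mouse cortex was counted in 24 mice aged 7.5 months, an assay in which each transcript is read with a coloured barcode and is not amplified. The 4 groups were 5xFAD Plcg2 KO+/- females, 5xFAD females, 5xFAD Plcg2 KO+/- males and 5xFAD males, with 6 mice each. All mice carried the 5xFAD transgenes, human transgenes under the neuronal Thy1 promoter that lead to early amyloid plaques. The Plcg2 KO+/- mice also lacked 1 copy of Plcg2, which encodes a phospholipase of microglia and other blood-lineage cells, and no mice without the 5xFAD transgenes were analysed here. RNA of the same 24 mice was also counted on the nCounter Neuropathology panel, which makes 48 samples in all, and 2 of the 7 genes, Cd8a and Prf1, were measured there among 760 genes.

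T cells recognise antigen through a receptor that signals through the CD3 chains. CD8 T cells and natural killer cells kill target cells by releasing granules of perforin and granzymes, under transcription factors of the T-box family, and regulatory T cells, marked by FOXP3, restrain such responses. In the healthy brain these cells are rare, and T cells have been described in the brain around amyloid plaques. In bulk cortex RNA, fewer cells of a type and less RNA per cell cannot be told apart.

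Cd3d encodes the delta chain of the CD3 complex and Cd8a the alpha chain of the CD8 co-receptor. Foxp3 encodes the defining transcription factor of regulatory T cells, and Eomes encodes eomesodermin, a T-box factor of cytotoxic T cells and natural killer cells. Prf1 encodes perforin, the pore-forming protein of cytotoxic granules, Gzma encodes granzyme A, a granule protease, and Nkg7 encodes a membrane protein of the granules. All 7 matched the RefSeq annotation of the mouse genome, build GRCm38.p6, where they lie on 6 chromosomes. Cd3d was at chr9:44981769-44987052, Eomes at chr9:118478186-118486132 and Cd8a at chr6:71373427-71379171. Prf1 was at chr10:61297751-61304684, Gzma at chr13:113093824-113100981, Nkg7 at chr7:43437138-43438246 and Foxp3 at chrX:7579676-7595243.

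The 7 genes moved in the same direction between the genotypes, and their promoters were read for 3 motifs of lymphocyte transcription factors. That direction was not particular to the 7. Of the 58 other genes with a mean under 20 normalized counts, 54 also had higher values in Plcg2 KO+/- cortex over both sexes. RefSeq promoter windows were available for 7 of the 7 genes, with 8 windows in all because Foxp3 had 2 starts. The starts are those of the promoter windows and not always the gene starts printed above. The windows of Cd3d, Prf1 and Eomes end past the first base of the gene as given there. The 250 bases before each start were searched on both strands for the T-box motif AGGTGTGA, the Runx motif TGTGGT and the ETS motif AGGAAG. The 4 windows below belong to Cd3d, the gene with the largest genotype difference, and to the 3 granule genes Prf1, Gzma and Nkg7. They run 5′ to 3′ on the gene's strand, and capitals mark the motif matches on either strand.
Cd3d: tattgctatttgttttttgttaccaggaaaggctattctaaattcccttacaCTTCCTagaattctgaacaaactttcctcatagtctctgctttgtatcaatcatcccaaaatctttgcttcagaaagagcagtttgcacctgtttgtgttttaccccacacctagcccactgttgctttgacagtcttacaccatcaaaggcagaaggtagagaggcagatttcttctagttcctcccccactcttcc
Prf1: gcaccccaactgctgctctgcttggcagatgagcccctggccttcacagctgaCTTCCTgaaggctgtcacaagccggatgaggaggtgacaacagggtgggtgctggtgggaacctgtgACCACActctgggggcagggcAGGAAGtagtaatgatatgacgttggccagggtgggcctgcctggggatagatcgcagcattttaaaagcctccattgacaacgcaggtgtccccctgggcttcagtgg
Gzma: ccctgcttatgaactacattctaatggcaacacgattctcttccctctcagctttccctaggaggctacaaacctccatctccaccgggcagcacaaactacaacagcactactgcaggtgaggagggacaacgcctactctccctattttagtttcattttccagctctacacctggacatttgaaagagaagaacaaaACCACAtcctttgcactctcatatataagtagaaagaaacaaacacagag
Nkg7: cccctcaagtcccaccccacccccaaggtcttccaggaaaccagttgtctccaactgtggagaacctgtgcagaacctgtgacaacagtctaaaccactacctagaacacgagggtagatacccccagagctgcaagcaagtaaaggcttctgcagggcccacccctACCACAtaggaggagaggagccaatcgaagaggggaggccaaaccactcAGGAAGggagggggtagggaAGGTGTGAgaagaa
These windows lie at chr9:44981536-44981785 on the plus strand for Cd3d, chr10:61297586-61297835 on the plus strand for Prf1, chr13:113100982-113101231 on the minus strand for Gzma and chr7:43436888-43437137 on the plus strand for Nkg7. The T-box motif was found in Nkg7, with its first base 14 bases before the start, and in no other of the 8 windows, against 1.12% of 32851 mouse promoter windows. The Runx motif was found in the windows of the 3 granule genes, against 14% of all windows, and in no window of the other 4 genes. The ETS motif was found in Cd3d, Prf1, Nkg7 and 1 of the 2 windows of Foxp3, against 29.5% of all windows. No 2 of these motif matches overlapped. A match is a run of letters and not a site of binding, and binding was not measured.

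The 7 genes were counted close to the lower end of the assay. Whole counts could be recovered from the deposited log2 values, and the median count of these genes was 15.5 in Plcg2 KO+/- females, against 3.5 in 5xFAD females. It was 16 in Plcg2 KO+/- males, against 9 in 5xFAD males. Of the 42 values of each group, 0 were at 3 counts or fewer in Plcg2 KO+/- females, against 21 in 5xFAD females, of which 6 were at a single count. In males 0 values were at 3 counts or fewer in Plcg2 KO+/- mice, against 4 in 5xFAD mice. No gene of the panel had a recovered count of 0 in any mouse, but a log2 value cannot hold a count of 0. The absence of 0 therefore does not show that every gene was detected. The geometric mean over the 24 mice, in normalized counts, ran from 4.3 for Foxp3 to 12.6 for Prf1, and 65 of the 757 genes had a mean under 20. Each gene was read with its own probe, so counts of different genes show how precisely each was measured and not which transcript was more abundant.

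Depth moved with genotype in females. Total recovered counts over the 757 genes ran from 1773331 to 1897264 in Plcg2 KO+/- females, against 953461 to 1239109 in 5xFAD females, and did not overlap. In males totals ran from 1360757 to 1814975 in Plcg2 KO+/- mice, against 1428825 to 1775622 in 5xFAD mice. The deposited values had been scaled by the authors, and the normalized totals ran from 1326834 to 1469604 in females and from 1518652 to 1712360 in males. Mouse numbers in the labels ran from 3 to 51 in Plcg2 KO+/- mice, against 1177 to 1270 in 5xFAD mice, so a difference of cohort and the genotype cannot be told apart. Neuronal genes marked the tissue as labelled, with means of 1012 to 23385 normalized counts for the 7 measured. Plcg2 was not analysed here, so the genotype labels were not checked against its expression.

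All 7 lymphocyte genes were higher in Plcg2 KO+/- cortex than in 5xFAD cortex when the sexes were averaged, by 1.97-fold for Nkg7 to 3.30-fold for Cd3d. A gene was called at a Benjamini-Hochberg adjusted p under 0.05 over all 757 genes in limma, a linear model that pools the spread over genes. By this rule 7 of 7 were called higher, where 33.8% of the panel was called higher and 26.7% lower. Their median difference was 1.08 on the log2 scale, against 0.041 over all 757 genes. The summed normalized counts of the 7 genes show the pattern in each sex. The sum had a lowest value of 76.8, a median of 85.1 and a highest of 91.5 in Plcg2 KO+/- females, against 27.3, 32.9 and 43.6 in 5xFAD females. In males it had a lowest value of 81.2, a median of 120 and a highest of 151 in Plcg2 KO+/- mice, against 53.7, 64.5 and 76.6 in 5xFAD mice. In both sexes the lowest Plcg2 KO+/- mouse lay above the highest 5xFAD mouse in this sum. In males 0 of the 7 genes were apart in this way singly. Sums of other genes of like level were not set beside this sum.

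**Figure D1:**
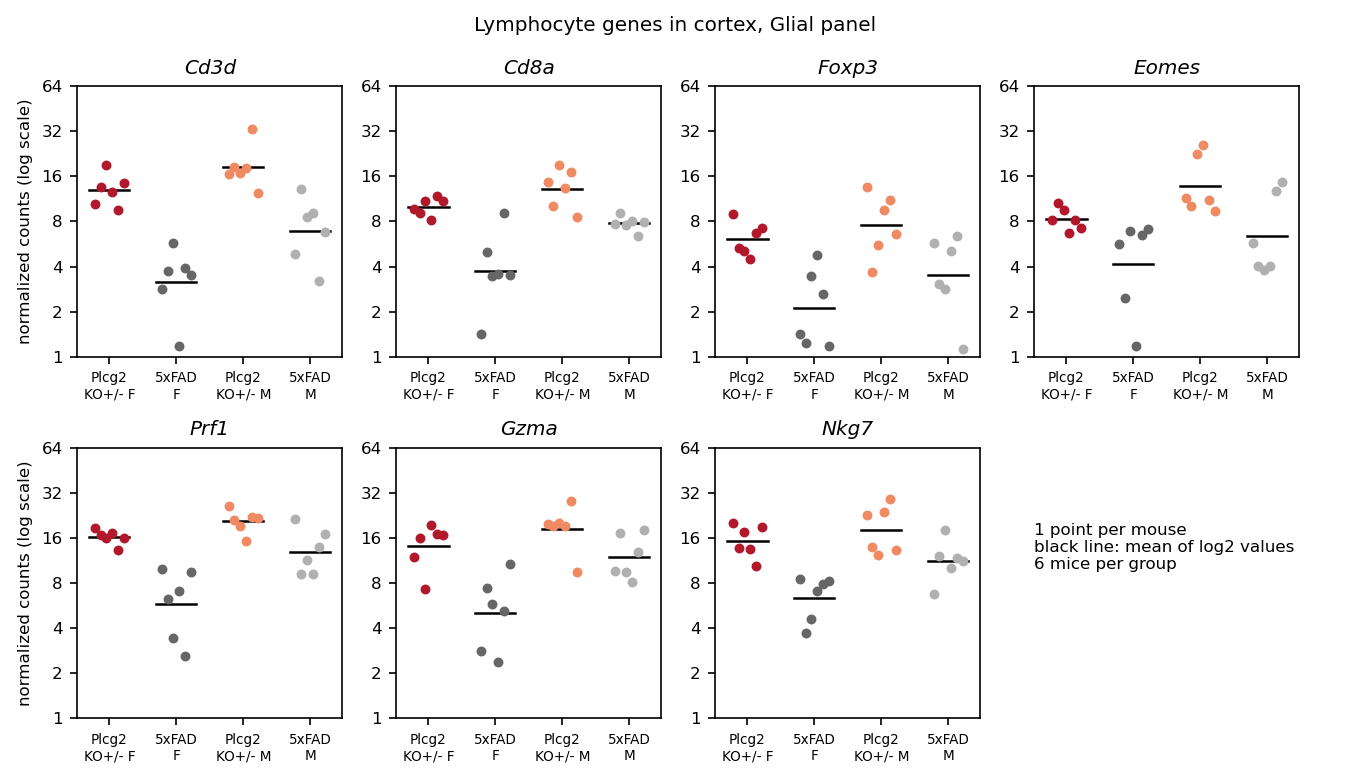
Normalized counts of the 7 genes on the Glial panel, on a log2-spaced axis, with 1 point per mouse, 6 mice per group and a black line at the mean of the log2 values. Plcg2 KO+/- mice lie above 5xFAD mice of the same sex on average for every gene, and in females the points of Cd3d, Prf1 and Nkg7 do not overlap between genotypes.

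Among the T cell receptor and co-receptor genes, Cd3d had normalized counts of 9.6 at the lowest, 13.2 at the median and 18.9 at the highest in Plcg2 KO+/- females, against 1.19, 3.63 and 5.76 in 5xFAD females. In males Cd3d had 12.3, 17.5 and 33.1 in Plcg2 KO+/- mice, against 3.21, 7.64 and 13.2 in 5xFAD mice. The female groups did not overlap, and in males 1 Plcg2 KO+/- mouse, number 48, lay below the highest 5xFAD mouse. Cd3d was higher by 2.04 ± 0.33 in females (SE, log2 scale, 6 mice a group, limma adjusted p = 2.51e-05) and by 1.41 ± 0.33 in males (adjusted p = 0.00234). This was the largest positive genotype difference of the whole panel in females and over both sexes, and the second largest in males. From summed counts per panel total, with an exact 95% interval that covers counting error only, Cd3d was 3.89 times as high in Plcg2 KO+/- females (2.32 to 6.92, from 108 counts, against 17 in 5xFAD females). In males it was 2.57 times as high (1.81 to 3.71, from 116 counts in Plcg2 KO+/- mice, against 45 in 5xFAD mice).

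Cd8a had normalized counts of 8.18 at the lowest, 10.3 at the median and 11.8 at the highest in Plcg2 KO+/- females, against 1.41, 3.55 and 9.13 in 5xFAD females. Among males Cd8a had 8.5, 14 and 19.1 in Plcg2 KO+/- mice, against 6.41, 7.8 and 9.13 in 5xFAD mice. In each sex 1 5xFAD mouse reached the range of the Plcg2 KO+/- mice, and the 5xFAD males were closely spaced. Cd8a was higher by 1.42 ± 0.28 in females (SE, log2 scale, limma adjusted p = 0.000182) and by 0.77 ± 0.28 in males (adjusted p = 0.0305).

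Foxp3, the gene of the regulatory T cell factor, had the fewest counts of the 7. Its normalized counts were 4.46 at the lowest, 5.98 at the median and 8.91 at the highest in Plcg2 KO+/- females, against 1.18, 2.01 and 4.74 in 5xFAD females. In males they were 3.68, 8.08 and 13.5 in Plcg2 KO+/- mice, against 1.13, 4.05 and 6.41 in 5xFAD mice. The groups overlapped in both sexes, and the whole female 5xFAD group summed to 12 counts, against 51 in Plcg2 KO+/- females. Foxp3 was higher by 1.53 ± 0.41 in females (SE, log2 scale, limma adjusted p = 0.0029) and by 1.12 ± 0.41 in males (adjusted p = 0.0318).

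Eomes was the 1 gene of the 7 with a larger difference in males than in females. It had normalized counts of 6.69 at the lowest, 8.14 at the median and 10.6 at the highest in Plcg2 KO+/- females, against 1.19, 6.08 and 7.08 in 5xFAD females. The values in males were 9.45, 11.2 and 25.8 in Plcg2 KO+/- mice, against 3.78, 4.92 and 14.6 in 5xFAD mice. The 2 highest Plcg2 KO+/- males and the 2 highest 5xFAD males stood apart from the other mice of their groups. Eomes was higher by 0.99 ± 0.42 in females (SE, log2 scale, limma adjusted p = 0.0489) and by 1.11 ± 0.42 in males (adjusted p = 0.0374). The female call ended in 14 of the fits that left out 1 mouse, and the adjusted p was highest, at 0.152, without 5xFAD female 1248, a mouse with a single count of Eomes.

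Among the granule genes, Prf1 had normalized counts of 13.3 at the lowest, 16.4 at the median and 18.6 at the highest in Plcg2 KO+/- females, against 2.61, 6.66 and 9.86 in 5xFAD females. Among males Prf1 had 15.3, 21.4 and 26 in Plcg2 KO+/- mice, against 9.11, 12.6 and 21.2 in 5xFAD mice. The female groups did not overlap and the male groups did. Prf1 was higher by 1.49 ± 0.27 in females (SE, log2 scale, limma adjusted p = 7.43e-05) and by 0.67 ± 0.27 in males (adjusted p = 0.0477). The male call of Prf1 lay close to the threshold, with an adjusted p of 0.0526 under trended and robust settings of limma and of up to 0.108 without 1 mouse (5xFAD male 1181). Gzma had normalized counts of 7.28 at the lowest, 16.3 at the median and 19.3 at the highest in Plcg2 KO+/- females, against 2.37, 5.49 and 10.6 in 5xFAD females. The values in males were 9.45, 19.5 and 28.1 in Plcg2 KO+/- mice, against 8.1, 11.2 and 18 in 5xFAD mice. Both pairs of groups overlapped, through 1 low Plcg2 KO+/- mouse in each sex. Gzma was higher by 1.48 ± 0.33 in females (SE, log2 scale, limma adjusted p = 0.00063), and in males the difference of 0.62 ± 0.33 did not pass the test (adjusted p = 0.13). Nkg7 had normalized counts of 10.3 at the lowest, 15.6 at the median and 20 at the highest in Plcg2 KO+/- females, against 3.72, 7.47 and 8.45 in 5xFAD females. Among males Nkg7 had 12.3, 18.3 and 29.1 in Plcg2 KO+/- mice, against 6.75, 11.5 and 18 in 5xFAD mice. The female groups did not overlap, and in males 3 of the 6 Plcg2 KO+/- mice lay within the range of the 5xFAD mice. Nkg7 was higher by 1.26 ± 0.25 in females (SE, log2 scale, limma adjusted p = 0.00026) and by 0.70 ± 0.25 in males (adjusted p = 0.0342).

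Within females the limma fit called 7 of 7 genes higher, where 34.5% of the panel was called higher. Within males it called 6 of 7, where 17.2% of the panel was called higher. The exact permutation test of each gene over all splits of the 12 mice of a sex into 6 and 6, two-sided and adjusted over all 757 genes, called 7 of 7 higher in females, where 32.6% of the panel passed. In males it called 2 of 7, Cd3d and Cd8a, where 8.06% of the panel passed. The smallest p this test allows is 0.00216. Every Plcg2 KO+/- mouse lay above every 5xFAD mouse for 3 of 7 genes in females, where 15.2% of the panel did so, and for 0 of 7 in males, where 1.98% did. The male count rested on few mice: it was 2 of 7 without Plcg2 KO+/- male 10, 11 or 46 and 3 of 7 without 5xFAD male 1181, 1182 or 1268. The panel's own male count also moved when 1 mouse was left out. It ran from 251 to 404 of the 757 genes called in either direction, against 308 with all mice. Of the 24 fits that each left out 1 mouse, the male call was lost in 15 for Prf1, in 6 each for Foxp3, Eomes and Nkg7, in 5 for Cd8a and in 0 for Cd3d. It also depended on scaling, since quantile normalization, which gives every mouse the same distribution of values, left 5 of 7 called over both sexes, 3 of 7 in females and 1 of 7 in males. Under that setting 228 of the 757 genes of the panel were called higher over both sexes, 201 in females and 173 in males.

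Depth was also set beside these counts. With the log2 total of each mouse in the model, 6 of 7 genes were called in males, where totals overlapped, and 3 of 7 (Cd3d, Eomes and Prf1) over both sexes. In males that fit called 339 of the 757 genes of the panel, of which 150 were higher. Over both sexes it called 116 of the 757 genes, against 458 without the total, and of the 116 it called 30 higher. The differences of Cd8a, Gzma and Nkg7 in that fit were 0.86 ± 0.40, 1.17 ± 0.48 and 0.95 ± 0.37 (SE, log2 scale, limma adjusted p = 0.155, 0.0976 and 0.0892), with standard errors larger than the 0.20, 0.23 and 0.18 of the fit without the total. Foxp3 was at 0.34 ± 0.54 with the total, against 1.33 ± 0.29 without it, and Eomes at 2.23 ± 0.54, against 1.05 ± 0.30. Within females totals did not overlap between genotypes, so depth and genotype cannot be told apart there.

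The genotype difference did not differ detectably between the sexes. For the interaction, 0 of 7 genes were called by limma (21.9% of the panel was called), and 1 gene, Prf1, had an unadjusted p under 0.05 (0.0406). Voom on the recovered counts also called 0 of 7. The female minus male difference of the genotype difference was 0.82 ± 0.38 for Prf1 and 0.86 ± 0.46 for Gzma (SE, log2 scale, limma adjusted p = 0.121 and 0.193), and it was -0.12 ± 0.59 for Eomes (adjusted p = 0.902). Averaged over genotypes, 6 of 7 genes were lower in females than in males, where 76.2% of the panel was called lower in females. The median female minus male difference of the 7 genes was -0.73, against -0.27 over the panel, and it was -0.52 ± 0.29 for Foxp3, which did not pass (SE, log2 scale, limma adjusted p = 0.0956). Since the normalized totals differed between the sexes, this comparison also rests on scaling. With recovered counts divided by each mouse's total, 2 of 7 genes were called lower in females. The share of the panel called lower under that setting is not reported here, so the drop is not shown to be particular to the 7 genes. For each of the 7 genes the order of the group means from high to low was Plcg2 KO+/- males, Plcg2 KO+/- females, 5xFAD males and 5xFAD females. Each pair of neighbours in this order overlapped.

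**Figure D2:**
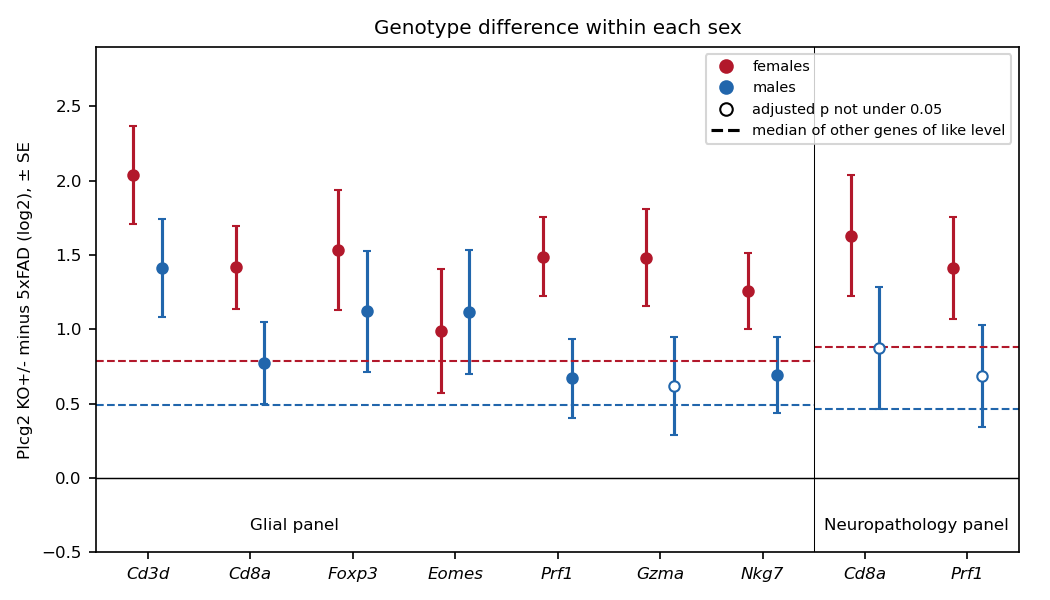
Genotype difference of each gene, Plcg2 KO+/- minus 5xFAD on the log2 scale with its standard error, in females (red) and males (blue), on the Glial panel (left) and on the Neuropathology panel (right). Filled points passed the limma test at an adjusted p under 0.05, open points did not, and dashed lines are the medians of the other genes of like mean level, 0.78 in females and 0.49 in males on the Glial panel.

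The 7 genes were then set beside other genes of like mean level, because most dim genes of the panel had higher values in Plcg2 KO+/- cortex. On the Glial panel 38 other genes had a mean within the range of the 7. Some of the 38 were themselves lymphocyte genes, such as Cd3e, Cd3g, Cd8b1, Tbx21, Klrk1 and Ncr1. Of the 38 genes 19 were called higher and 0 lower over both sexes, with a median difference of 0.56 on the log2 scale. Their median difference was 0.78 in females, with 16 called higher, and 0.49 in males, with 3 called higher. Among all 58 other genes with a mean under 20 normalized counts, 30 were called higher and 0 lower, with a median difference of 0.55. Among the 692 genes with a mean of 20 or more, 219 were called higher and 202 lower, and the median difference was 0.017.

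Each of the 7 genes lay above the median of the 38 genes in both sexes, by unequal amounts. Over both sexes Cd3d lay 1.16 above it and Foxp3 0.77 above it on the log2 scale, and 0 of the 38 genes had a larger difference than either. Cd8a, Eomes, Prf1 and Gzma lay 0.49 to 0.53 above it, each with 1 of the 38 genes higher. Nkg7 lay 0.41 above it, with 3 of the 38 genes higher. In males the distance was 0.92 for Cd3d, 0.63 for Foxp3 and 0.62 for Eomes, with 0 of the 38 genes higher than any of them. It was 0.18 for Prf1, 0.13 for Gzma and 0.20 for Nkg7, with 13, 13 and 11 of the 38 genes higher, so in males these granule genes lay within the upper part of the dim genes. These ranks are a description, and whether the 7 genes as a set stand apart from dim genes was not tested.

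Of the 14 genes nearest in level, 2 to each of the 7, 7 were called higher and 0 lower over both sexes. The 14 included the lymphocyte genes Tbx21, Trat1, Gzmb, Cd3g, Klrd1 and Xcl1. Beside Cd3d, Mx1, an interferon-induced antiviral gene, was higher by 0.75 ± 0.27 and Ceacam3 by 1.04 ± 0.19 over both sexes (SE, log2 scale, limma adjusted p = 0.0195 and 9.19e-05). Beside Prf1, Gzmb, which encodes the protease granzyme B, was higher by 0.70 ± 0.19 and Spib, a transcription factor of B cells and plasmacytoid dendritic cells, by 0.80 ± 0.15 (adjusted p = 0.00264 and 0.000132). Beside Gzma, the cytokine genes Il1b and Tnf were higher by 0.46 ± 0.18 and 0.45 ± 0.15 (adjusted p = 0.0318 and 0.01). Beside Nkg7, Cd3g and the complement gene C3 had differences of 0.52 ± 0.30 and 0.17 ± 0.20 that did not pass (adjusted p = 0.131 and 0.479). Beside Eomes, the natural killer receptor gene Klrd1 and the chemokine gene Xcl1 had differences of 0.36 ± 0.31 and 0.19 ± 0.23 that did not pass (adjusted p = 0.325 and 0.498).

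**Figure D3:**
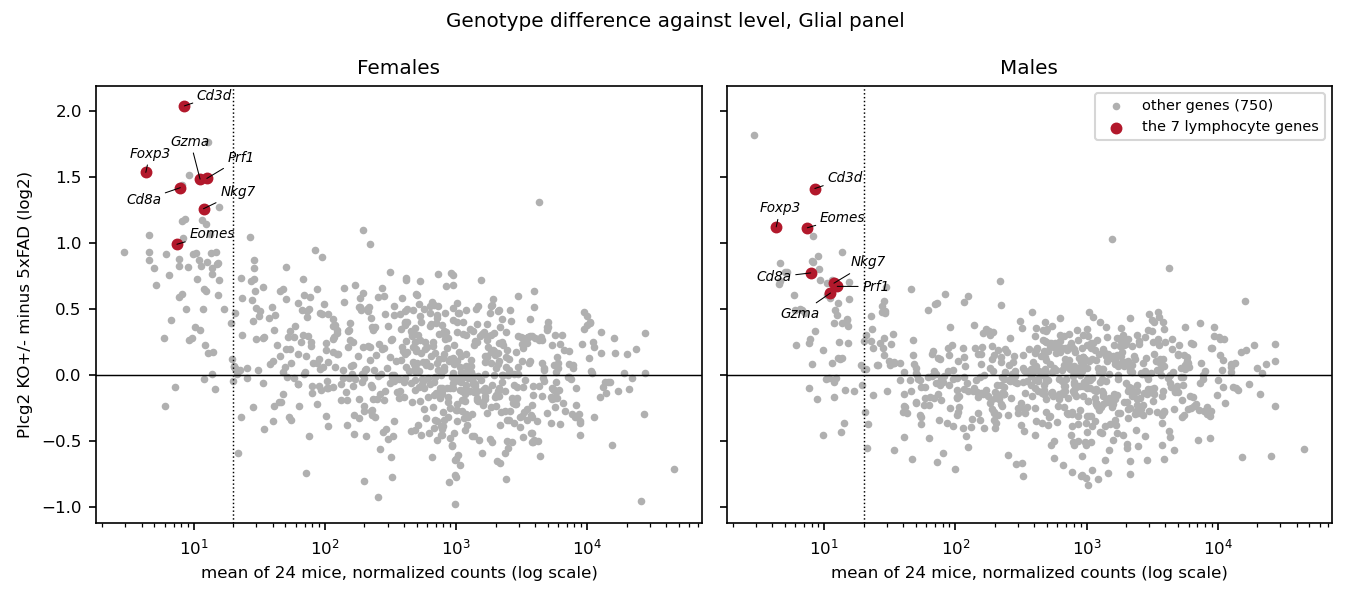
Genotype difference of all 757 genes of the Glial panel, Plcg2 KO+/- minus 5xFAD on the log2 scale, against the geometric mean level over 24 mice in normalized counts on a log axis, in females (left) and males (right). Red points are the 7 lymphocyte genes, grey points the other 750, and the dotted line marks 20 normalized counts. Genes left of it lie mostly above 0 in both sexes.

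The panel held other genes of the same cells. Of 25 measured genes of T cells, regulatory and effector T cells, and cytotoxic and natural killer cells, 18 were not among the 7. Of these 18, 7 were called higher and 0 lower over both sexes, to be read against the 33.8% of the whole panel called higher. In females 6 of the 18 were called higher, where 34.5% of the panel was, and in males 0, where 17.2% of the panel was. The median difference of the 18 genes was 0.48 on the log2 scale over both sexes, and 14 of them had a mean under 20 normalized counts.

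Among the T cell genes, the 2 other CD3 chains did not pass. Cd3e had a difference of 0.45 ± 0.24 and Cd3g of 0.52 ± 0.30 over both sexes (SE, log2 scale, limma adjusted p = 0.106 and 0.131), where Cd3d had 1.72 ± 0.23 (adjusted p = 2.51e-06). Cd8b1, which encodes the partner chain of CD8, had 0.63 ± 0.29 and did not pass (adjusted p = 0.0675), where Cd8a had 1.10 ± 0.20 (adjusted p = 6.39e-05). Differences between these genes were not tested. Trac, the constant region of the T cell receptor alpha chain, counted at a mean of 27.6, was higher by 0.55 ± 0.16 (adjusted p = 0.00463). Sh2d1a, which encodes the signalling adaptor SAP, was higher by 1.01 ± 0.16 over both sexes (adjusted p = 2.05e-05), with 1.76 in females and 0.25 in males, where it did not pass (adjusted p = 0.38). Cd4, Cd6 and Trat1 did not pass, with differences of 0.12, -0.12 and 0.42.

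Of the regulatory and effector genes, Tbx21, which encodes the T-box factor T-bet, was higher by 0.87 ± 0.26 over both sexes (SE, log2 scale, limma adjusted p = 0.00636). Cd244a and Lag3 had differences of -0.11 each and did not pass. Of the cytotoxic and natural killer genes, Klrk1, which encodes the activating receptor NKG2D, was higher by 0.76 ± 0.19 (adjusted p = 0.00128). Klrb1, a lectin-like receptor gene, was higher by 0.55 ± 0.14 (adjusted p = 0.0023), and Ncr1, which encodes the natural killer receptor NKp46, by 0.86 ± 0.30 (adjusted p = 0.018). Klrk1 had a difference of 1.43 in females and 0.086 in males, where it did not pass (adjusted p = 0.815). Ctsw, a protease gene of cytotoxic cells, had -0.09 ± 0.15 and did not pass.

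**Figure D4:**
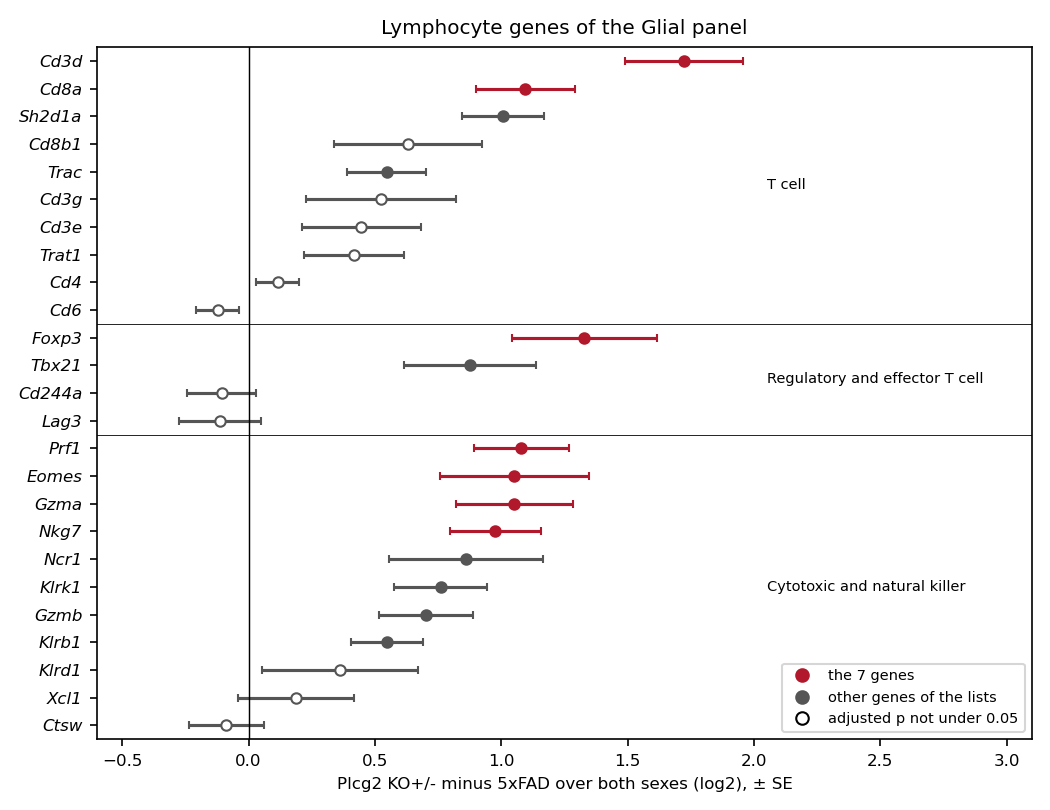
Genotype difference over both sexes, Plcg2 KO+/- minus 5xFAD on the log2 scale with its standard error, of the 25 measured genes of 3 lists of lymphocyte genes on the Glial panel. Red points are the 7 genes and grey points the 18 others, filled where the limma adjusted p was under 0.05. The 7 genes were chosen with earlier results of these data known, so their place at the top of each list is not a result. Cd3e, Cd3g and Cd8b1 are open points between 0.45 and 0.63.

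Genes around the T cell response were measured as well. Among genes of cytokines and recruitment, Ccl2, which encodes a monocyte chemokine, was higher over both sexes by 0.68 ± 0.13 and Tnf by 0.45 ± 0.15 (SE, log2 scale, limma adjusted p = 0.000111 and 0.01). Il10 had 0.46 ± 0.29 and did not pass. Of 5 genes of MHC class I presentation, 0 were called higher and 2 lower over both sexes, where 26.7% of the panel was called lower. H2-T23 fell by 0.41 and the immunoproteasome gene Psmb8 fell by 0.25 on the log2 scale (adjusted p = 5.21e-05 and 0.0259). H2-D1, B2m and Tap1 had differences of 0.04, -0.03 and 0.02 and did not pass. In females H2-D1 was called higher, by 0.22 (adjusted p = 0.048), where 34.5% of the panel was called higher, and H2-T23 and Psmb8 were called lower. Over both sexes Ptprc, which encodes the pan-leukocyte protein CD45 and is also expressed by microglia, fell by 0.35. Grb2, a broadly expressed signalling adaptor gene, fell by 0.16 (adjusted p = 0.0086 for Ptprc and 0.00108 for Grb2).

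Some genes listed as markers of other blood cells, many of them also under 20 normalized counts, were higher in the same contrast, in which 33.8% of the panel was called higher and 26.7% lower. Within males 130 of the 757 genes of the panel (17.2%) were called higher and 178 lower, and the male counts below are to be read against that. Of 6 B cell genes 4 were called higher and 0 lower over both sexes, with a median difference of 0.61 on the log2 scale, and 0 were called in males. All but 1 of them had a mean under 20 normalized counts. The exception was Pnoc, at a mean of 28.4, which was called higher by 0.28 over both sexes (limma adjusted p = 0.0284). Whether B cells were the source of Pnoc in this cortex was not tested. The summed normalized counts of the 6 genes, Pnoc among them, ran from 69.9 to 88.6 in Plcg2 KO+/- females, against 41 to 79.5 in 5xFAD females. The sums were 93.5 to 140 in Plcg2 KO+/- males, against 86.2 to 100 in 5xFAD males. Of 5 mast cell genes 3 were called higher and 0 lower, with a median of 0.74, and their sums ran from 28.2 to 47.9 in Plcg2 KO+/- females, against 16.9 to 28.7 in 5xFAD females. They ran from 44.4 to 60.5 in Plcg2 KO+/- males, against 35.7 to 53.4 in 5xFAD males, and 1 of the 5 was called higher in males. Of 4 neutrophil genes 2 were called higher and 1 lower, with a median of 0.30, and in males 1 was called higher with a median of -0.03. Of 4 genes of monocytes and border macrophages 1 was called higher and 0 lower, with a median of 0.10, and 0 were called in males. The part of these cells in the result was not tested.

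The same 24 mice on the Neuropathology panel gave a second count of Cd8a and Prf1. Cd8a had normalized counts of 19.2 at the lowest, 27.9 at the median and 30.4 at the highest in Plcg2 KO+/- females, against 1.37, 10.5 and 17.1 in 5xFAD females. The male values were 21.8, 34.3 and 43.8 in Plcg2 KO+/- mice, against 10.6, 20.1 and 24.4 in 5xFAD mice. The female groups did not overlap and the male groups did. Prf1 had 6.57, 8.41 and 9.75 in Plcg2 KO+/- females, against 1.31, 3.96 and 6.28 in 5xFAD females. The male values were 3.75, 7.42 and 11.3 in Plcg2 KO+/- mice, against 2.39, 5.33 and 6.61 in 5xFAD mice. Here too the groups were apart in females and overlapped in males. Both genes were apart in females, where 16.2% of the 760 genes were so, and 0 of 2 in males, where 5.26% were. Total recovered counts on this panel ran from 1220459 to 1603006 in Plcg2 KO+/- females, against 528033 to 651615 in 5xFAD females. These totals did not overlap, so depth and genotype cannot be told apart in females on this panel either. In males totals ran from 1119119 to 1587858 in Plcg2 KO+/- mice, against 865095 to 1274953 in 5xFAD mice.

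Over both sexes Cd8a was higher by 1.25 ± 0.29 and Prf1 by 1.05 ± 0.24 on this panel (SE, log2 scale, limma adjusted p = 0.000689 and 0.000693), where 35.5% of its genes were called higher. In females both were called, at 1.63 ± 0.41 and 1.41 ± 0.34 (adjusted p = 0.00229 and 0.00177), where 35.3% were. In males 0 of 2 were called by limma, at 0.88 ± 0.41 and 0.69 ± 0.34 (adjusted p = 0.0723 and 0.0913, unadjusted p = 0.0435 for Cd8a), where 18.4% were. The exact permutation test called both in females, where 33.9% of the panel passed, and Cd8a in males (adjusted p = 0.0298), where 17.0% passed. The 58 other genes of like level on this panel had a median difference of 0.68 over both sexes, with 49 called higher and 0 lower. Under quantile normalization the difference of Prf1 turned to -0.098 over both sexes.

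Mouse by mouse, no relation between the 2 panels was detected. With each group's mean subtracted, the 2 measurements of Cd8a correlated over 24 mice with Pearson r = 0.082 (permutation p = 0.721) and Spearman rho = 0.218 (permutation p = 0.315). For Prf1 r was -0.178 (permutation p = 0.587) and rho was -0.235 (permutation p = 0.362), and both had an adjusted p of 0.721 for r over the 2 genes. Without the 2 mice farthest from the median r was 0.174 for Cd8a and -0.018 for Prf1.

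Within groups the 7 genes varied with little in common. Over 24 mice, with group means subtracted, the 21 pairs of genes had Pearson r between -0.58 (Cd8a with Prf1) and 0.40 (Cd3d with Gzma), with a median of 0.034 and 11 pairs above 0. The other genes most like the mean of the 7, by the same measure over 24 mice, were Pcca (r = 0.62), Psmd10 (0.56), Cfi (0.56), Ms4a4a (0.53) and Psmd14 (0.53). Of these Pcca, a mitochondrial carboxylase gene, differed by -0.03 between the genotypes and Cfi, a complement inhibitor gene, by 0.66 on the log2 scale. The points share their mouse's library and scaling, and these correlations are a description.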

How the data were processed

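Values were the authors' deposited log2 normalized counts of 757 genes (Glial panel) and 760 genes (Neuropathology panel) for 24 mice each. Per the labels, total RNA was made with a Purelink RNA Mini Kit and run by the standard NanoString protocol. How the authors normalized is not given in the sources used here. For every mouse 100% of the values were whole multiples of 1 factor (tolerance 0.05), which gave the counts and totals.

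Means of 4 groups were fitted to the log2 values of all genes by limma 3.58.1 (R 4.3.3), with moderated standard errors, Benjamini-Hochberg adjustment over all genes of the panel and a threshold of 0.05. Exact permutation p-values were adjusted in the same way. Correlations used 100000 permutations. Levels are geometric means, no gene was filtered out and no pseudocount was added. Each sample is 1 mouse, and its number in the labels is its replicate. The fit was tested on simulated data. Summaries used Python 3.11.15, pandas 2.3.3 and scipy 1.17.1.

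The 7 genes and the marker lists were chosen with earlier results of these data known. Named genes are the 7, up to 4 per list with the smallest p of the genotype difference, the 2 nearest in level to each of the 7 and the 5 most alike. Others (Cd3e, Cd8b1, Cd4, Cd6, Klrb1, Ncr1, Ctsw, Tap1) were named after their values were seen. Alternatives were median centring, quantile normalization, trended and robust eBayes, array weights, a pseudocount of 5, leaving out genes with means under 20 or under 5, voom on recovered counts, counts divided by the total, the total as a covariate, each sex alone, no sex term and leaving out each mouse. Leaving out 2 mice together was added after seeing the data. Promoter sequences are from RefSeq, GRCm38.p6. Some results are not reported here.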

Additional observations from a re-analysis of the deposited data

Results flagged for a closer look

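In Plcg2 KO+/- males on the Glial panel, Gzma was lowest in mouse 48, at a log2 value of 3.24, and the gap to the next mouse was large for the range of the 6 mice by Dixon's test. In 5xFAD females on the Neuropathology panel, Cd8a was lowest in mouse 1248, at a log2 value of 0.452 from 1 recovered count, by the same test. Without that mouse the difference of Cd8a in males on that panel passed the limma test (adjusted p = 0.00188), where its standard error was 0.215, against 0.409 with all mice. Chance alone marks about 1 in 20 groups in this way.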

How the results depend on the processing

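No paired analysis was possible because the genotypes share no mouse numbers. The count of genes called over both sexes was 7 of 7 in every fit that left out 1 mouse and 6 to 7 in females, and 2 to 6 in males. In these fits 438 to 485 of the 757 genes of the panel were called in either direction over both sexes. The panel count was 386 to 442 in females and 251 to 404 in males. By exact permutation the count of the 7 genes was 6 to 7 in females and 1 to 2 in males. The sex difference gave 5 to 7 and the interaction 0. Panel counts without 1 mouse are not reported here for the permutation, sex and interaction results. Quantile normalization gave 3 called in females by either test and 1 in males by either test, and 0 for sex. It turned Eomes in females to -0.041, Nkg7 for sex to 0.029 and, on the Neuropathology panel, Prf1 over both sexes to -0.098, in females to -0.033, in males to -0.163 and for sex to 0.484. Foxp3 for sex turned to 0.057, and neither it nor Prf1 in males had passed the test before. Prf1 for sex on the Neuropathology panel had not passed before either, at -0.224 (limma adjusted p = 0.377). On the Neuropathology panel quantile normalization left 1 of 2 genes called over both sexes and in females, where 253 and 179 of the 760 genes were called higher. With the total as a covariate 3 of 7 were called over both sexes (1 of 2 on the Neuropathology panel), among 116 of 757 genes (452 of 760). In males on the Neuropathology panel, where 0 of 2 were called, array weights, voom, a pseudocount of 5, median centring and counts divided by the total each called 2. Over the panel these settings called 192, 272, 149, 307 and 266 of the 760 genes higher, against 140 in the limma fit of the deposited values. The total as a covariate and each sex alone each called 1 of 2, where 178 and 136 genes were called higher. Leaving out 1 mouse called 0 to 2. For sex, voom called 1 and counts divided by the total 2. Panel counts for sex under the alternative settings are not reported here. Leaving out Plcg2 KO+/- female 12 and male 3 together gave 3 in males, and 1 on the Neuropathology panel. In males this called 201 of the 757 and 172 of the 760 genes higher. Leaving out genes under a mean of 20 removed all 7 genes, so that filter gives no value for them, and under 5 it removed Foxp3. Median centring moved the median of all genes in males on the Neuropathology panel to 0.161, against -0.062 as deposited. The low counts limit each single mouse's value more than the group sums.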

Other observations

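On the Glial panel Tpsb2, a mast cell tryptase gene, was higher in males by 1.81 on the log2 scale (limma adjusted p = 0.0137), against 0.93 in females, where it did not pass (adjusted p = 0.163). Its mean was 2.93 normalized counts. On the Neuropathology panel Fasl, which encodes the death ligand of cytotoxic lymphocytes, was higher by 1.28 in females and 1.16 in males (adjusted p = 0.000321 and 0.000833), and Cd4 by 0.25 and 0.45 (adjusted p = 0.0107 and 0.000132). On the Glial panel Cd4 differed by 0.01 in females and 0.22 in males and did not pass in either sex (adjusted p = 0.96 and 0.134). Tnf, read on both panels in the same mice, differed in males by 1.33 on the Neuropathology panel (adjusted p = 0.000402) and by 0.09 on the Glial panel (adjusted p = 0.752).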
